A study of Bos taurus with 4 samples.

Results

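The genes described here are Timp1, Timp2 and Timp3, which encode tissue inhibitors of metalloproteinases, and Adamts1, which encodes a secreted metalloproteinase. They were followed in chromaffin cells, which store and secrete catecholamines in the adrenal gland. Every mouse cDNA clone of the array whose platform annotation gave 1 of these 4 symbols was kept, which gave 9 of 35964 library clones: 1 clone for Timp1, 3 for Timp2, 4 for Timp3 and 1 for Adamts1. Each clone was printed as 1 library spot on each array. The genes were chosen by symbol, but the choice was made with the PACAP over control ratios of Timp1 and Adamts1 on these same arrays known. The ratios of all 9 clones are therefore given as a description, with no test.

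The cells came from cattle and are labelled as chromaffin cells, although the tissue entry of the labels reads brain. One group received the neuropeptide PACAP (pituitary adenylate cyclase-activating polypeptide) in vitro at 100 ng/ml for 6 h at 37 C, and the other was its control of the same repeat number, for which the labels describe no treatment. PACAP RNA was labelled with Cy5 and control RNA with Cy3, and both were hybridised to 1 array in each of 4 repeats, called biological by the submitters. No dyes were swapped, so a dye preference of a clone is part of its ratio. Whether the repeats came from separate animals is not stated, and the spread between arrays may therefore be smaller than that between animals. The RNA is that of cattle and the clones are of mouse, so poorly conserved stretches can lower a signal. In bulk RNA, fewer cells of a type and less RNA per cell cannot be told apart.

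TIMPs are small secreted proteins that sit in the active site of matrix metalloproteinases and block them, and the balance between protease and inhibitor sets how fast the matrix around a cell is taken apart. TIMP1 is soluble and also binds the tetraspanin CD63 at the cell surface, TIMP2 takes part in the activation of the MMP2 precursor by MMP14, and TIMP3 is held in the matrix and also blocks several ADAM and ADAMTS proteases. ADAMTS1 cleaves the proteoglycans versican and aggrecan. PACAP is the peptide transmitter of the nerve that drives the adrenal medulla, and it raises cyclic AMP and calcium in chromaffin cells.

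Repeat 4 stood apart from the other arrays. Its median control signal of 548.0 exceeded its median PACAP signal of 248.2, and its log2 ratios correlated with those of repeats 1, 2 and 3 at Pearson's r of -0.016, -0.13 and -0.0078 over at least 33564 clones, against 0.23 to 0.38 among repeats 1 to 3. These correlations run across clones, which are not independent replicates, and each array shares its own dye balance over all of them. Of library spots, 90.7 to 98.3% exceeded 2 SD of their local background in the PACAP channel, against 45.4 to 94.7% in the control channel. Clones printed at 2 places differed within an array by a median of 0.15 to 0.30 log2 units. Values below are mean log2(PACAP / control) ± SD over 4 arrays after loess normalisation unless stated otherwise.

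Timp1 had a loess-normalised PACAP over control ratio above 0 on all 4 arrays, and the PACAP channel was the brighter one before normalisation on 3 of them. Its clone, AI842847, is titled as the tissue inhibitor of metalloproteinase and sat on the array as a spot of 106 to 121 pixels with a quality score of 1 on every array. On repeats 1 to 4, background-subtracted intensity was 697, 1128, 533 and 810.2 in the PACAP channel, against 232, 264, 139 and 1123.5 in the control channel. On repeats 1 to 3 the PACAP channel was the brighter one by a wide margin, and on repeat 4 the control channel was brighter, as it was for most clones of that array. Set against the loess curve of its own array, the Timp1 log2 ratio was 1.03, 0.94, 1.34 and 0.73 on repeats 1 to 4. The mean was 1.01 ± 0.25 (SD, n = 4), or 2.02-fold, with repeat 3 the highest and repeat 4 the lowest. Without repeat 4 the mean was 1.10.

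The Timp1 ratio rests on a bright PACAP spot and, on repeats 1 to 3, on a dim control spot. The PACAP signal stood 18.1, 52.2, 55.5 and 17.3 background SD above the local background on repeats 1 to 4, whereas the control signal stood 2.73, 1.72, 2.30 and 20.1 background SD above it. Control signal thus exceeded 2 background SD on 3 of 4 arrays, and only on repeat 4 by more than 3 background SD. Where both channels were far above background, on repeat 4, the log2 ratio was 0.73, the smallest of the 4. With the 1 dim control spot left out, a choice made after seeing the data, the mean of the other arrays was 1.04.

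**Figure D1:**
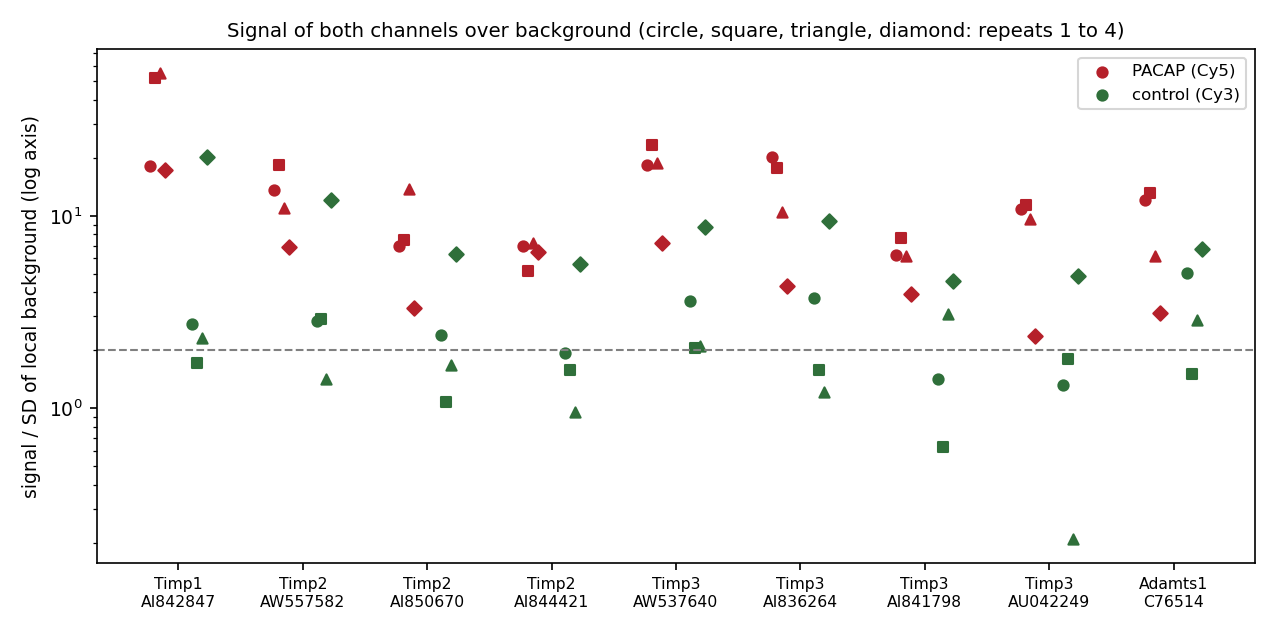
Signal divided by the SD of the local background (log axis) for the 9 clones, with PACAP (Cy5, red) left of control (Cy3, green) and 1 symbol per repeat; the dashed line marks 2 background SD. All 36 PACAP spots lie above the line, against 21 of 36 control spots, and Timp1 reaches 55.5 in the PACAP channel on repeat 3.

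Before normalisation the log2 ratio of Timp1 was 1.58, 2.10, 1.94 and -0.47 on repeats 1 to 4. The loess curve of each array at the brightness of this clone lay at 0.55, 1.16, 0.60 and -1.20. Timp1 therefore lay above the curve of its array each time, also on repeat 4, where both were below 0. The distance to the curve is the ratio reported here.

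**Figure D2:**
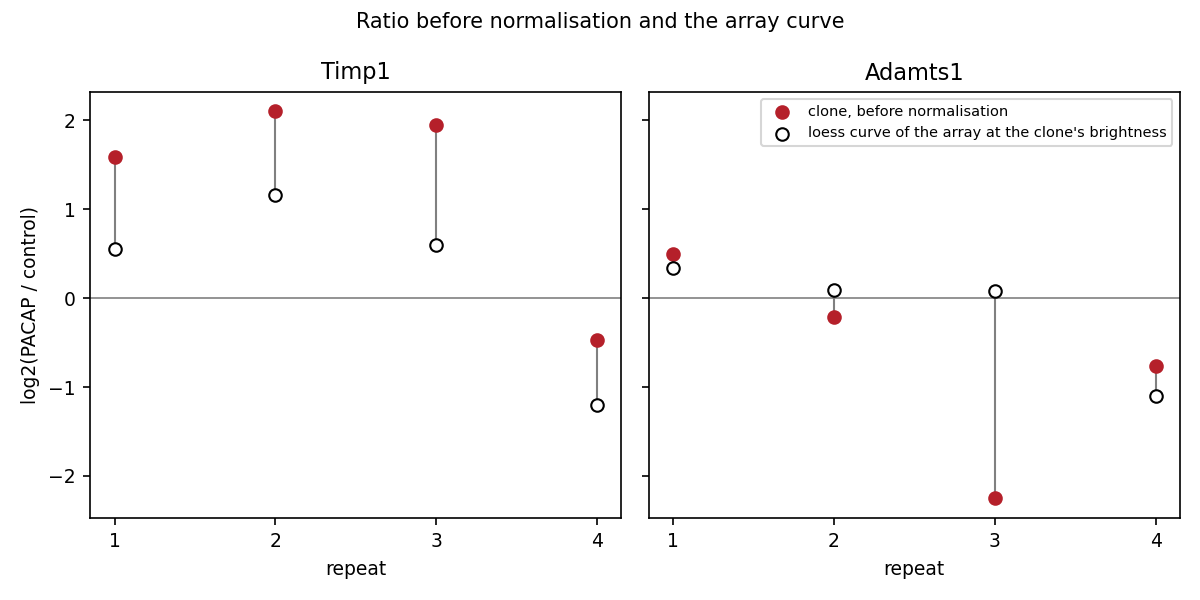
Log2(PACAP / control) of the Timp1 and Adamts1 clones before normalisation (red) and the loess curve of the same array at the brightness of the clone (open circles), by repeat. Timp1 lies above the curve on 4 of 4 arrays, whereas Adamts1 lies within 0.35 of it on repeats 1, 2 and 4 and far below it on repeat 3, with a difference of -2.33.

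The deposited series table gives larger values for Timp1. Its log2 ratios could be recomputed by taking the local background off the deposited means once more and setting results under 1 to 1. On repeats 1 to 3 the control signal of all 27 member spots, those of Timp1 included, was at that floor, so that the deposited values there vary with the PACAP channel alone. For Timp1 the authors' deposited table has 8.45, 9.05, 8.33 and 0.78 on repeats 1 to 4, which are 3.77, 3.54, 4.08 and 1.16 above the median of the array. Repeat 4, where the Timp1 control signal stayed above the floor, again has the smallest value and the same direction.

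Timp3, the inhibitor bound to the matrix, had small ratios that lay mostly above 0. Its 4 clones all carry the title of tissue inhibitor of metalloproteinase 3, and they are separate pieces of 1 gene rather than replicates of the treatment. Averaged over the 4 clones, the log2 ratio was 0.31, 0.33, 0.56 and 0.35 on repeats 1 to 4, with a mean of 0.39 ± 0.12 (SD, n = 4). Of the 16 values of clone and array, 14 were above 0 and 2 below.

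The 4 Timp3 clones differed more from each other than those averages did between arrays. Clone AW537640, the only one of the 9 with control signal above 2 background SD on 4 of 4 arrays, had 0.005, 0.04, 0.47 and 0.62 on repeats 1 to 4, a mean of 0.28 ± 0.31. Its values on repeats 1 and 2 are near 0 and none is below it. Clone AI836264 had 0.11, 0.39, 0.75 and -0.33 (mean 0.23 ± 0.46). Clone AI841798 had 0.23, 0.76, -1.26 and 1.09, so that its mean of 0.20 ± 1.04 is smaller than its spread, and the quality score of its spot was 0 on all 4 arrays. Clone AU042249 had 0.91, 0.13, 2.30 and 0.01 (mean 0.84 ± 1.05), the largest mean of the gene. That mean turns on repeat 3, where its control signal of 15.8 stood only 0.21 background SD above background, and it was 0.35 without that array.

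On repeat 3 the Timp3 clones ranged over 3.56 log2 units, against 0.72 to 1.42 on the other arrays. Repeat 3 was also the array with the dimmest PACAP signal, with a library median of 99.9. Spots of clones AI841798 and AU042249 were the lowest and the highest there, and the other Timp3 clones lay between 0.47 and 0.75.

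Timp2, which acts with MMP14 on the MMP2 precursor, showed no common direction over the arrays. Averaged over its 3 clones, the log2 ratio was 0.39, -0.89, -0.19 and 0.50 on repeats 1 to 4 (mean -0.05 ± 0.64, SD, n = 4), and 5 of 12 values were above 0. Within an array the signs of the clones were mostly alike: all 3 were below 0 on repeats 2 and 3, all 3 above 0 on repeat 4, and 2 of 3 above 0 on repeat 1. Their values ranged over 0.81, 1.37, 0.31 and 0.58 log2 units on repeats 1 to 4. Clone AW557582 had 0.41, -1.60, -0.03 and 0.41, a mean of -0.20 ± 0.95 that became 0.26 without repeat 2. Clone AI850670 had -0.02, -0.22, -0.34 and 0.26 (mean -0.08 ± 0.26), the narrowest spread of the gene. Clone AI844421 had 0.78, -0.84, -0.19 and 0.83 (mean 0.15 ± 0.81). Its control signal exceeded 2 background SD on repeat 4 alone, and its mean was -0.07 without repeat 1 and -0.08 without repeat 4. Clones AW557582 and AI850670 carry the title of a DNA segment of mouse chromosome 11 and clone AI844421 that of Timp2.

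Adamts1, the protease of the set, had a mean log2 ratio of -0.53 ± 1.23 (SD, n = 4) that came from 1 array. Its clone, C76514, is titled as the protease with thrombospondin motif 1. Intensity on repeats 1 to 4 was 317, 174, 76.0 and 184 in the PACAP channel, against 225, 202, 362 and 312.5 in the control channel. The log2 ratio was 0.15, -0.31, -2.33 and 0.35, so that 2 arrays were above 0 and 2 below. Without repeat 3 the mean was 0.06. On repeat 3 the Adamts1 spot covered 72 pixels with a quality score of 0.1, and its control signal stood 2.87 background SD above background. On repeat 4 it covered 45 pixels with a score of 0.2. On repeats 1 and 2, where the spot covered 101 and 99 pixels, the ratio lay within 0.31 of 0.

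**Figure D3:**
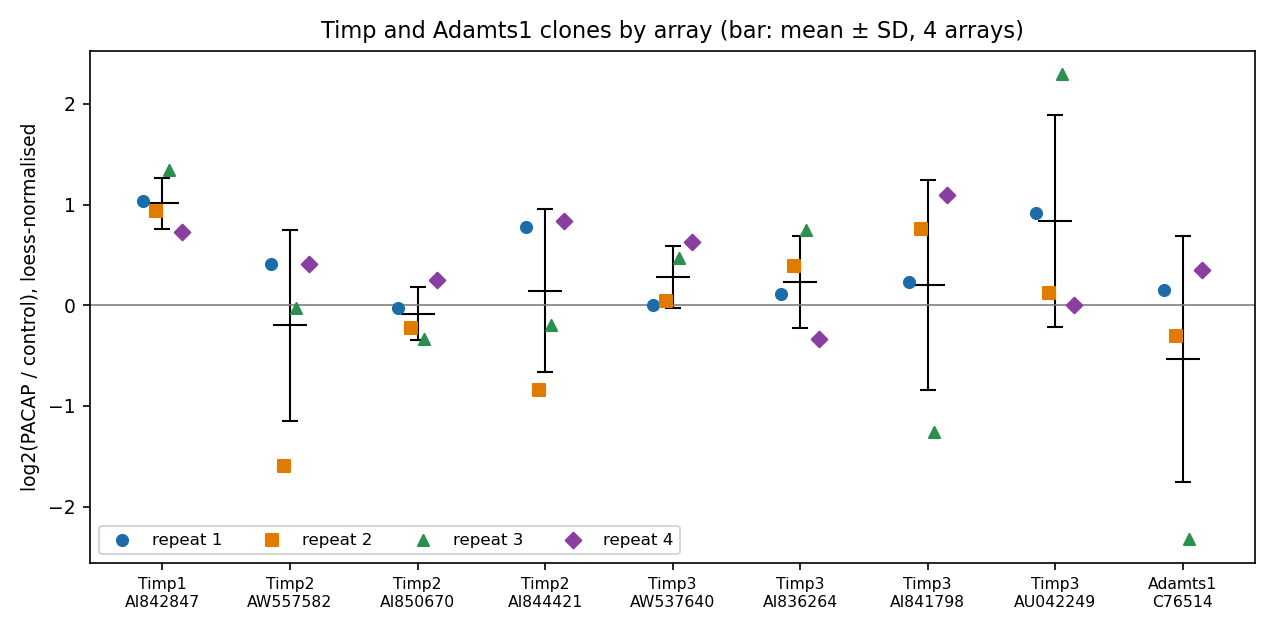
Loess-normalised log2(PACAP / control) of the 9 clones on each array (1 symbol per repeat), with the mean and SD over 4 arrays as a black bar. Timp1 lies between 0.73 and 1.34 on all 4 arrays, Timp2 clones lie on both sides of 0, and the mean of Adamts1 is drawn down by repeat 3 at -2.33.

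Over the 9 clones, the mean log2 ratio was above 0 for 6 and below 0 for 3, with a median of 0.20, against a median of -0.01 over the 35112 tested clones. Of all tested clones, 48.6% had a mean above 0 and 51.4% below. All 4 Timp3 clones, pieces of 1 gene, are among the 6. Timp1 and the Timp3 clones AW537640 and AU042249 were above 0 on all 4 arrays, which is 3 of 9 clones, and 0 of 9 were below 0 on all 4. The lowest value was 0.73 for Timp1 but only 0.005 for AW537640 and 0.007 for AU042249. Among the 33267 tested clones with a value on every array, 10.1% were above 0 on all 4 and 8.71% below. Since some of these clones were chosen with their ratios known, nothing is read from these counts. The SD over arrays was 0.25 for Timp1, 0.26 to 1.23 for the other 8 clones, and 0.55 at the median of all tested clones.

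All 9 clones had PACAP signal above 2 background SD on all 4 arrays. Control signal passed that level for 6 of 9 clones on repeat 1, 2 on repeat 2, 4 on repeat 3 and 9 on repeat 4. Among all tested clones, 31.3% had control signal above that level on every array, against 1 of these 9.

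Across all tested clones, limma called 0 of 35112 (0%) at an adjusted p under 0.05, with a lowest adjusted p of 0.454, while 3647 (10.4%) had an unadjusted p under 0.05, 3.92% of clones as higher and 6.46% as lower.

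Directions under other scalings were compared for each clone. Timp1 stayed above 0 in all 16 alternatives, but not all of them could change its value. Without the filter, with other moderation and with spots under 60 pixels left out it was again 1.01. Leaving out dim control spots was, for Timp1, the same as leaving out repeat 2 (1.04). The deposited ratios as given have a median of 3.31 over all clones, and every member clone was above 0 in them. Over the 13 alternatives that use neither the deposited ratios nor a second subtraction, Timp1 ranged from 0.80 under print-tip loess to 1.28 under median centring. It was 0.23 when the background was subtracted a second time before loess, and 3.13 from the deposited log2 ratios centred on each array. Timp3 clone AW537640 was also above 0 in all 17 of its alternatives, of which several likewise repeat its reported value of 0.28. Adamts1 was below 0 in 13 of 16, the exceptions being the fit without repeat 3 (0.06) and the deposited log2 ratios as given (3.80) and centred (0.28). Every Timp2 clone and the other Timp3 clones took both signs.

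**Figure D4:**
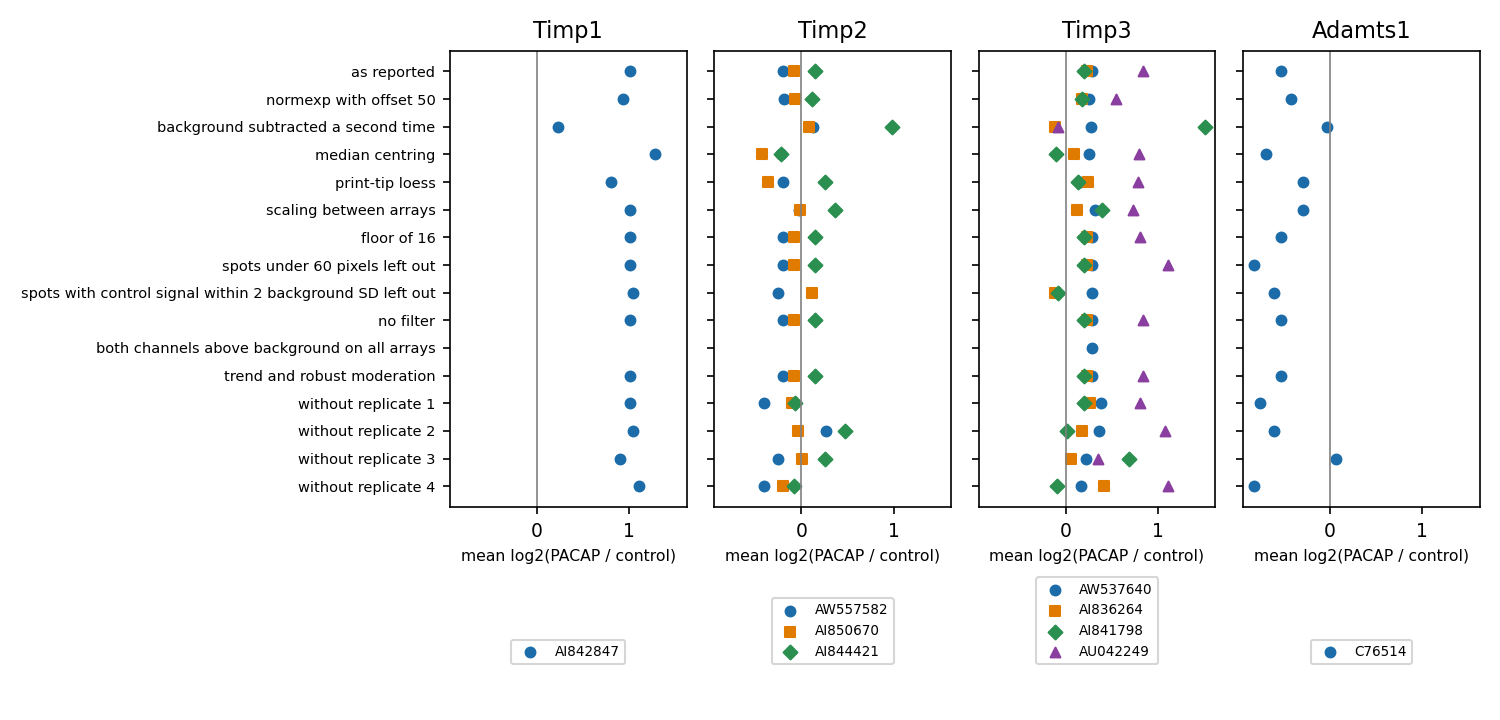
Mean log2(PACAP / control) of each clone (1 symbol per clone) under the reported processing and 15 alternatives, by gene; the deposited log2 ratios are not drawn. Timp1 lies between 0.23 and 1.28 throughout, and the Timp2 clones and Adamts1 cross 0.

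Other genes of matrix proteolysis gave no call. In 6 lists of inhibitors, proteases, and their substrates and partners, 46 of 82 genes other than the members were measured, and limma called 0 of 46 higher and 0 lower at an adjusted p under 0.05 over all clones (lowest 0.476). At an unadjusted p under 0.05, 1 of 46 (2.17%) was higher and 0 lower, against 10.4% of all clones in either direction. The median log2 ratio of the 46 genes was 0.04, with 26 above 0 and 20 below, against a median of -0.01 over all tested clones. Of all tested clones, 48.6% were above 0 and 51.4% below, which applies to the counts of each list below as well.

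Among the other inhibitors, all 3 listed genes were measured and their ratios were smaller than their spread. Timp4, the fourth family member, had -0.04 ± 0.35, and its second clone was below 0 as well. Reck, an inhibitor anchored in the membrane, had 0.04 ± 0.38. A2m, the plasma inhibitor alpha-2-macroglobulin, had 0.14 ± 0.39. Their adjusted p values were 0.848 to 0.964 in limma.

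Of 18 other ADAMTS proteases, 8 were measured, with a median log2 ratio of 0.06 and 6 of them above 0. Adamts17 had 0.33, 0.36, 1.22 and 0.47 on repeats 1 to 4 (mean 0.59 ± 0.42, adjusted p = 0.480 in limma). Its clone is titled as weakly similar to the ADAMTS-1 protein, and of the 2 other Adamts17 clones 1 was above and 1 below 0. Adamts5, which degrades aggrecan, had -0.20 ± 0.34 (adjusted p = 0.772) and was 0.31 under median centring. Adamts10 had 0.15 ± 0.27 and Adamts4, a further aggrecan-degrading protease, had 0.13 ± 0.39, which was -0.01 under median centring.

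Matrix metalloproteinases are the main targets of the TIMPs. Of 23 matrix metalloproteinases, 9 were measured, with a median log2 ratio of 0.04 and 0 with an unadjusted p under 0.05. The gelatinase Mmp9, a main partner of TIMP1, had 0.11, 0.05, 1.14 and -0.24 on repeats 1 to 4 (mean 0.26 ± 0.60, adjusted p = 0.733 in limma) and was -0.06 under median centring. The collagenase Mmp13 had -0.35 ± 0.91 and Mmp23 had -0.30 ± 0.41. Mmp16, a protease of the membrane, had 0.20 ± 0.37 and was -0.02 under median centring. Of 12 membrane proteins of the ADAM family, some of which are active proteases, 8 were measured, 2 above 0 and 6 below, with a median of -0.10. Adam8 was below 0 on 4 of 4 arrays, with -0.80, -0.75, -0.37 and -0.03 on repeats 1 to 4 (mean -0.49 ± 0.36, adjusted p = 0.512 in limma). Adam11, Adam22 and Adam23 encode family members that lack the catalytic zinc-binding motif and are not active proteases. Adam22 had 0.57 ± 0.66, with control signal above background on only 1 array. Adam11 had -0.58 ± 0.81, and Adam23 had -0.13 ± 0.31, which was 0.34 under median centring.

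In the plasminogen system, which activates several metalloproteinases, 6 of 11 genes were measured, with a median log2 ratio of 0.03 that became 0.16 when the clones of a gene were averaged and -0.05 under median centring. Anxa2, a cell-surface site of plasmin formation, was above 0 on 4 of 4 arrays, with 0.20, 0.25, 0.19 and 0.49 (mean 0.28 ± 0.14, adjusted p = 0.647 in limma). Under median centring it had 1.34. Serpinb2, an inhibitor of plasminogen activators, had -0.25 ± 0.63, with control signal above background on only 1 array. The clone with the symbol S100a10 had 0.19 ± 0.32, but its title names another protein of the family, calgizzarin, so that the gene it reports is uncertain. The neuronal inhibitor Serpini1 had -0.30 ± 1.39 over 3 arrays.

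Of 15 substrates and partners of ADAMTS1 and TIMP1, 12 were measured, with a median log2 ratio of 0.05 that became 0.39 under median centring and -0.15 when the clones of a gene were averaged. Cd63, the tetraspanin that binds TIMP1, was above 0 on 4 of 4 arrays, with 0.52, 0.80, 0.72 and 0.23 on repeats 1 to 4 and control signal above background on all 4. Its mean was 0.57 ± 0.26 (unadjusted p = 0.0467, adjusted p = 0.476 in limma), and its 2 other clones were above 0 too. Itgb1, the integrin subunit found with CD63, was below 0 on 4 of 4 arrays (mean -0.55 ± 0.31, adjusted p = 0.480 in limma), but was 0.46 under median centring, and its 2 other clones split 1 to 1. Thbs1, thrombospondin, had 0.35 ± 0.35. Acan, the aggrecan core protein, had -0.34 ± 0.34, and 0.32 under median centring.

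**Figure D5:**
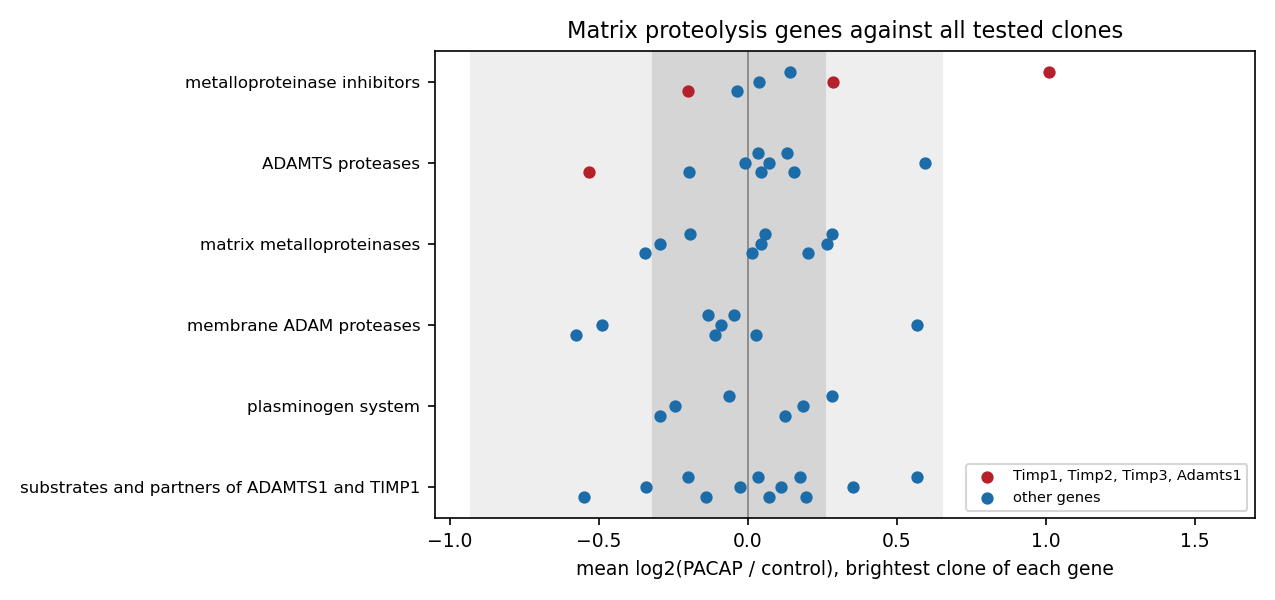
Mean log2(PACAP / control) of the brightest tested clone of each gene in 6 lists over 4 arrays, or 3 for Serpini1 and Vcan (red, Timp1, Timp2, Timp3 and Adamts1; blue, other genes); the dark and light bands hold the middle 50% and 90% of all tested clones. Timp1 at 1.01 lies to the right of the light band, which ends at 0.65, and the other genes of the lists lie inside it. Timp1 was chosen with its ratio known, so nothing is read from its place.

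Timp1 and Adamts1 are also expressed by fibroblasts and endothelial cells, so markers of these cells were read beside them. Of 11 fibroblast markers 9 were measured, and 0 of 9 were called in limma. At an unadjusted p under 0.05, 1 of 9 was higher, against 3.92% of all tested clones. Their median log2 ratio was 0.07, -0.04, 0.64 and 0.16 on repeats 1 to 4. Of the 9, 5 had a mean above 0 and 4 below, where 48.6% of all tested clones were above 0. Taken over the mean ratios, their median was 0.17, which was 0.53 under median centring and 0.03 under print-tip loess. Their summed intensity ranged from 19820 to 63210 in the PACAP channel and from 6945 to 61398 in the control channel. Of 9 endothelial markers 7 were measured, with median log2 ratios of 0.18, 0.23, 0.23 and 0.02 on repeats 1 to 4, summed intensities of 781 to 3333 and 745 to 4197, and 0 calls in limma. Of these 7, 4 had a mean above 0 and 3 below. Their median of 0.15 over the mean ratios became -0.003 when the clones of a gene were averaged. Every measured marker of both lists had control signal above background on at least 1 array. On repeat 4, however, 94.7% of all library spots passed that level in the control channel, so this does not show that these cells were present. The part of these cells in the Timp1 ratio was not tested. Of 10 chromaffin markers 7 were measured, each with PACAP signal above background on at least 3 arrays, and Dbh, Pnmt and Slc18a2 had no clone with that symbol. Since 90.7 to 98.3% of all library spots passed that level in the PACAP channel, this says little about the cell type.

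The genes whose ratios lay closest to those of Timp1 were found by the root mean square difference over the 4 arrays, among 21042 clones of other named genes. They were Brwd3 (difference 0.14, mean log2 ratio 1.15), Fndc3a (0.15, mean 0.94) and Rbm25 (0.17, mean 0.86). Closest to Adamts1 were Dnmt3a (0.091, mean -0.60), Cacna1e (0.11, mean -0.52) and Map2k4 (0.14, mean -0.54). Each of them was lowest on repeat 3, at -2.36 to -2.13, which follows from how they were found. The Cacna1e clone is titled as weakly similar to a probable cell cycle control protein of the fruit fly, so that the gene it reports is uncertain. With 4 values per clone and so many candidates, the closeness of these matches was not tested.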

How the data were processed

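The 4 scanner tables give mean spot intensity, local background and its SD per channel, on a linear scale per the file headers. The image program is, in the sources used here, not given. The deposited intensity was treated as already background-subtracted, which no header states and which was inferred: dividing control total intensity by mean plus background yielded 114 to 121.7 pixels at the median spot, near the median spot areas of 95 to 114, whereas dividing by the mean alone yielded 156.8 to 330.1. The inference is weakest on repeat 4, with 121.7 pixels against an area of 95 and 156.8 from the mean alone. With a second subtraction the Timp1 log2 ratio was 0.23 in place of 1.01. The deposited ratio column is that of the Cy5 and Cy3 means over 1 calibration factor per array (1.69, 1.97, 1.53 and 0.432 on repeats 1 to 4), as the deposited values show. A quality score from 0 to 1 and a spot area (other unit: pixels) also stand beside each spot, per the file headers. Log2 ratios make up the deposited series table and were recomputed from the scanner values. They run as PACAP over control and are not centred, with medians of 4.67, 5.51, 4.25 and -0.38 on repeats 1 to 4. Why the background was taken off again was not stated by the authors in the labels.

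With intensities under 1 set to 1, each array's log2(Cy5 / Cy3) was normalised with limma 3.58.1 under R 4.3.3 by global loess. Blanks, plates outside the library and spots without area got weight 0. No further background correction was made. Clones for which either channel exceeded 2 background SD on 3 or more of the 4 arrays were tested against 0 with lmFit and eBayes, 2-sided, with Benjamini-Hochberg adjustment over all clones. This filter passed 35112 of 35964 clones and all 9 members. Symbols came from the platform annotation, joined by plate position and kept where the recomputed and deposited log2 ratios differed by a median under 0.1 (35695 of 35873 entries). Of library spots, 22477 carried a single symbol, 1111 carried several and were left unnamed, and 12508 carried none. A gene of a list is represented by its brightest tested clone. Named genes are the members, up to 4 genes per list by smallest p and the 3 genes nearest to Timp1 and to Adamts1. The members and the lists were chosen with earlier results of these data known. Simulated data for 33267 clones, with independent noise at the SD of each clone, served to test the procedure. It called 0 of 67 simulated 2-fold changes, 35 of 67 4-fold ones and 43 of 66 8-fold ones, with 0 false calls. The absence of a call is therefore not the absence of a change, even one of 8-fold. Tables used numpy 2.4.6 and pandas 2.3.3 under Python 3.11.15, and plots matplotlib 3.10.9. Only 4 arrays limit the precision. Clone and promoter sequences were not used here. Alternatives covered background correction, normalisation, floor, filters, moderation, the deposited ratios and each array left out.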

Additional observations from a re-analysis of the deposited data

Results flagged for a closer look

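Of 43 values examined for 1 array far from the other 3, 2 stood apart, where chance alone flags about 1 group in 20, and neither was a member. The log2 ratio of Adamts10 was -0.25 on repeat 4, against 0.25 to 0.35 on the others. That of Adamts17 was 1.22 on repeat 3, against 0.33 to 0.47 on the others.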

How the results depend on the processing

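Limma called 0 clones at an adjusted p under 0.05 in the reported analysis and in 16 of 17 alternatives, each array left out included. Counts over the left-out arrays were 0 to 0. The lowest adjusted p in limma was 0.454 as reported but 0.05003 with scaling between arrays, where the count of 0 thus lies at the threshold. It was 0.076 without repeat 4 and 0.867 without repeat 3. From the deposited log2 ratios centred on each array limma called 461 of 34893, all lower. The median of these ratios over clones lay at -0.24. On repeats 1 to 3 the control values of all 27 member spots sit at the floor. Control values at the floor were not counted over all clones. The count at an unadjusted p under 0.05 was 3647 as reported. It was 741 with a second background subtraction, 912 with trend and robust moderation, 1757 with both channels above background on all arrays (10875 clones tested), 6099 under median centring, 14698 from the deposited ratios as given, where the median of all clones is 3.31, and 1835 without repeat 3 to 5150 without repeat 4. It was 2145 without repeat 2. With dim control spots left out, the median of all clones was -0.12. Over the left-out arrays, Timp1 had 0.90 to 1.10, Adamts1 -0.83 to 0.06, and the Timp3 clone AU042249 0.35 to 1.11. Adamts1 was -0.76 without repeat 1, -0.61 without repeat 2, 0.06 without repeat 3 and -0.83 without repeat 4, so that its sign turned without repeat 3 only. The medians of 3 of the 6 lists changed sign under median centring: metalloproteinase inhibitors (0.04, then -0.09), matrix metalloproteinases (0.04, then -0.06) and the plasminogen system (0.03, then -0.05). The reported test is itself paired, since each ratio sets PACAP against the control of the same repeat. No paired analysis was possible beyond it because each repeat has 1 array. On repeats 1 to 3, 12 of 27 member control spots exceeded 2 background SD, and the size of a ratio over a dimmer control spot is poorly determined. The causes of these shifts were not tested.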

Other observations

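Markers of the other cell types that an adrenal preparation can hold gave 0 calls in limma at an adjusted p under 0.05. Of 10 adrenal cortex markers 8 were measured, with a median log2 ratio of -0.29, 3 above 0 and 5 below. That median was 0.00099 when the clones of a gene were averaged. Of these 8 markers, 0 had an unadjusted p under 0.05, against 10.4% of all tested clones. Of 9 leukocyte markers 8 were measured, with a median of 0.21, 7 above 0 and 1 below, and 0 with an unadjusted p under 0.05. Among all tested clones 48.6% were above 0. Of 7 Schwann and sustentacular markers 5 were measured, with a median of -0.07, and 1 was lower at an unadjusted p under 0.05, against 6.46% of all tested clones. The 7 measured chromaffin markers had a median of 0.19, with 4 above 0 and 3 below. That median was 1.24 under median centring and -0.05 under print-tip loess. At an unadjusted p under 0.05, 3 of 7 were higher, against 3.92% of all tested clones, namely Scg2, Chgb and Penk. The Scg2 clone carries the title of patched homolog, which contradicts its symbol, and its control signal was above background on 2 arrays. Chga was below 0 on 4 of 4 arrays (mean -0.50 ± 0.14), but was 0.64 under median centring.

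The Timp3 clone AI836264 was also printed on a plate outside the library. That spot had an area of 0 pixels on all 4 arrays, with PACAP intensities of 1, 8.1, 1 and 41.2 and control intensities of 1, 333, 1 and 218 on repeats 1 to 4, and was not used.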
